A study of Homo sapiens with 6 samples.

Results

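Glycogen is the branched glucose polymer that cells keep as a store. Its synthesis starts from UDP-glucose, is primed by glycogenin, is extended by glycogen synthase and is branched by a dedicated enzyme, while glycogen phosphorylase releases glucose 1-phosphate from the chain ends. Tumour cells can hold glycogen and draw on it when glucose or oxygen is short. This account covers 9 genes of that cycle, GYG1, GYG2, GYS1, GBE1, PYGB, PYGL, PYGM, UGP2 and PPP1R3C, of which 8 had a probe set with their symbol among the 16965 probe sets on the arrays (15669 gene symbols). PYGM was not analysed here. The 8 measured genes had 1 probe set each, and no filter on low values was applied. The list was chosen by the fall of GYG2 intensity with 1 of the hairpins, so every value of that comparison, shS100A10_1 against shNCT, is given as a description with no test.

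MDA-MB-231, the cell line used, is an established line of mesenchymal character from a human breast cancer that lacks hormone receptors and HER2. Each group expressed 1 short hairpin RNA delivered by lentivirus, either shS100A10_1 or shS100A10_5, which are different sequences against S100A10, or the control hairpin shNCT, with 2 arrays of total RNA in each of the 3 groups. Puromycin at 2.5 µg/ml, which kills cells that lack the vector's resistance gene, was in the medium of every group, the control included, along with 10% serum. The labels state neither whether the cells were pools or clones nor whether duplicate arrays stem from different cultures. P-values therefore reflect array-to-array spread that could be technical alone.

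The 6 arrays had median intensities of 232 to 238, and none were identical. S100A10, the targeted gene, read 1969 and 1545 with shS100A10_1 and 13565 and 9460.5 with shS100A10_5, against 88860.2 and 92938 with shNCT. Replicate 2 of shS100A10_5 stood apart on the first principal component, at 41.1 against 18.7 for replicate 1 and -18.2 to -10.0 for the other arrays. All 5 markers of the line (VIM, CD44, AXL, CAV1 and MSN) were brighter than 95.5% to 99.8% of probe sets. Of 3 luminal epithelial genes, CDH1 was brighter than 4.23% of them, GATA3 than 42.6% and EPCAM than 71.3%. Summed intensity of the 3 fibroblast markers PDGFRA, DCN and LUM was 98.1 to 110.2 with shS100A10_1 and 119.7 to 128 with shS100A10_5, against 65.5 to 89.0 with shNCT. That of CDH1, GATA3 and EPCAM was 1522 to 1622 and 1489.6 to 1871, against 1063 to 1081 with shNCT, most of it from EPCAM alone, at 1387 to 1508 and 1366 to 1729.9, against 935 to 937 with shNCT. The 3 fibroblast markers were dim, brighter than 24.5% to 25.9% of probe sets, and LUM with shS100A10_1 (23.8 to 25.4) overlapped shNCT (21.1 to 28.8). Leukocyte markers (PTPRC, CD3E and CD14) summed to 141.5 to 154.3 with shS100A10_1 and 137.2 to 207.4 with shS100A10_5, against 164.8 to 169.7 with shNCT. Sums of muscle and of liver markers overlapped shNCT with both hairpins. Most of the muscle sum was ACTA1, brighter than 90.0% of probe sets. With shS100A10_5 the muscle gene MYH7 (39.7 to 42.7) lay below shNCT (46.8 to 48.2). The liver gene APOA1 (60.5 to 68.9) lay above shNCT (52.1 to 52.4), while ACTA1, CKM and ALB overlapped it. The part of any of these shifts in the results was not tested.

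GYG2 and GYS1 are the members on which the results turn. GYG1 is the paralog of GYG2, so the 250 bases before the annotated start of these 3 genes are shown, from RefSeq on GRCh38.p14. Capitals mark ACGTG or GCGTG on either strand, the core letters of the hypoxia response element, since GYS1, GBE1 and PPP1R3C are known as hypoxia-inducible genes. The GYG2 window is chrX:2828680-2828929 on the plus strand, that of GYG1 chr3:148991290-148991539 on the plus strand, and that of GYS1 chr19:48993310-48993559 on the minus strand.
GYG2: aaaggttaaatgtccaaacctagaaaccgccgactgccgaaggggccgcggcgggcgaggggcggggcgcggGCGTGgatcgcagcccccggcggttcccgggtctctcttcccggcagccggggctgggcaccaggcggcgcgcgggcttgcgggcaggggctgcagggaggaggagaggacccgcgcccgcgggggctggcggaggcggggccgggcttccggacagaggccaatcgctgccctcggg
GYG1: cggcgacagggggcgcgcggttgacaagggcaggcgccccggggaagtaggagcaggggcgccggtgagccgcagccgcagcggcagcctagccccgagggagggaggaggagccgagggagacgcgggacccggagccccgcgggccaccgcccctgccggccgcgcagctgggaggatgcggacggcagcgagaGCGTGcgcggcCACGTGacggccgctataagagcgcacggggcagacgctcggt
GYS1: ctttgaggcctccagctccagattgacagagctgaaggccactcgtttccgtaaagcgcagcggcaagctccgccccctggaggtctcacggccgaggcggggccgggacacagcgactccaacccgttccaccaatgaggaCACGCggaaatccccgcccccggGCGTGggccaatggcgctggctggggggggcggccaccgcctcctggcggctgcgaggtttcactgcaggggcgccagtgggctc
The GYG2 window held 1 GCGTG and the GYS1 window 2. The GYG1 window held 1 GCGTG and 1 palindromic CACGTG, which reads as ACGTG on both strands. Of the 8 genes, all matched in the RefSeq table, 4 had ACGTG in this window (GYG1, GBE1, UGP2 and PPP1R3C) and 6 had GCGTG. Among 35116 promoters of the same length, 18.5% had ACGTG and 32.2% had GCGTG. The 8 windows were rich in G and C, at 67.2% to 77.2% against a median of 58.0% for all promoters. These matches describe the letters only.

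GYS1, the synthase that glycogenin hands its primer to, fell 1.96-fold with shS100A10_5 relative to shNCT, and it was the 1 member that passed the test in that comparison. GYG2 intensity was 3.71-fold lower with shS100A10_1, the untested value that chose the list, and 1.74-fold lower with shS100A10_5, a difference that missed the threshold (limma, adjusted p = 0.0758). The remaining 6 members did not pass with shS100A10_5 either, and their log2 differences from shNCT lay between -0.31 and 0.29 over both hairpins.

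GYG2 encodes glycogenin 2, the liver-type glycogenin, which attaches the first glucose units to itself. Its intensity was 42.8 and 54.1 with shS100A10_1 and 109 and 95.9 with shS100A10_5, against 148 and 216 with shNCT. The 3 groups did not overlap, with shS100A10_1 lowest and shNCT highest. The log2 level was 5.59 ± 0.24 with shS100A10_1, 6.68 ± 0.13 with shS100A10_5 and 7.48 ± 0.38 with shNCT (SD, n = 2 each). GYG2 was brighter than 31.8% of probe sets with shS100A10_1, 40.9% with shS100A10_5 and 47.1% with shNCT. The leukocyte gene PTPRC read 41.8 to 48.8 on the shS100A10_1 arrays, close to GYG2 there. With no detection calls, how far background bounds the low GYG2 level was not tested.

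The log2 difference of GYG2 was -1.89 (SE 0.22) for shS100A10_1 against shNCT, the third lowest of all probe sets. This is the value that chose the list. For shS100A10_5 against shNCT it was -0.80 (SE 0.22, 95% interval -1.29 to -0.31), which missed the threshold (limma, adjusted p = 0.0758). That comparison uses the same control arrays as the one that chose the gene, and those controls differed from each other by 0.54, a gap exceeded by 6.77% of probe sets in shNCT. Without shNCT replicate 2, the brighter control, the shS100A10_5 difference was -0.53 (adjusted p = 0.406). The threshold was passed with dim probe sets removed (adjusted p = 0.0495) or with an intensity trend in the variance (adjusted p = 0.04995). GYG2 was 1.09 higher on the log2 scale with shS100A10_5 than with shS100A10_1, which is given without a test because the shS100A10_1 arrays chose it.

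GYG1 encodes glycogenin 1, the widely expressed form and the one used in muscle. Its intensity was 1606 and 1598 with shS100A10_1 and 1540.2 and 1464 with shS100A10_5, against 1302 and 1393 with shNCT. Both hairpins lay above the controls by a small margin, the opposite side from GYG2. The log2 difference was 0.25 (SE 0.17) for shS100A10_1. For shS100A10_5 it was 0.16 (95% interval -0.21 to 0.52; limma, adjusted p = 0.638), so a rise or fall of the size seen for GYS1 lay outside the interval.

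UGP2 makes UDP-glucose, the donor that both glycogenin and the synthase use. Its intensity was 1743 and 1767 with shS100A10_1 and 1839 and 2386 with shS100A10_5, against 1477 and 1988 with shNCT. Both hairpin groups overlapped the controls, whose own arrays differed by 0.43 on the log2 scale. The shS100A10_5 difference was 0.29 (95% interval -0.17 to 0.75; limma, adjusted p = 0.465), and that of shS100A10_1 was 0.03 (SE 0.21).

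GYS1 encodes the glycogen synthase of muscle and most other tissues outside the liver, the enzyme that extends the chain. Its intensity was 2120.5 and 2426 with shS100A10_1 and 1420.5 and 1226 with shS100A10_5, against 2655 and 2512 with shNCT. Both shS100A10_5 arrays lay well below the other 4, while the shS100A10_1 arrays lay just under the controls. The log2 level was 11.15 ± 0.14 with shS100A10_1, 10.37 ± 0.15 with shS100A10_5 and 11.33 ± 0.06 with shNCT (SD, n = 2 each).

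With shS100A10_5, GYS1 fell by 0.97 on the log2 scale relative to shNCT (SE 0.18, 1.96-fold, 95% interval 1.49 to 2.57; limma, adjusted p = 0.0251). It was also lower with shS100A10_5 than with shS100A10_1, by a difference of -0.78 (SE 0.18, 1.72-fold; limma, adjusted p = 0.0465). With shS100A10_1 its difference from shNCT was -0.19 (SE 0.18). The lowest level of GYS1 was with shS100A10_5 and that of GYG2 with shS100A10_1. The fall of GYG2 with shS100A10_1 chose the list, so a split of these genes by hairpin was not tested. The fall of GYS1 against shNCT missed the threshold without shNCT replicate 1 (-0.93, adjusted p = 0.130), without shNCT replicate 2 (-1.01, 0.145) or without shS100A10_5 replicate 2 (-0.86, 0.150), and held without shS100A10_5 replicate 1 (-1.07, 0.0359). The difference between the hairpins was lost without any 1 of the 6 arrays (adjusted p = 0.0511 to 0.210) and with each array centred on its median (0.0506).

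**Figure D1:**
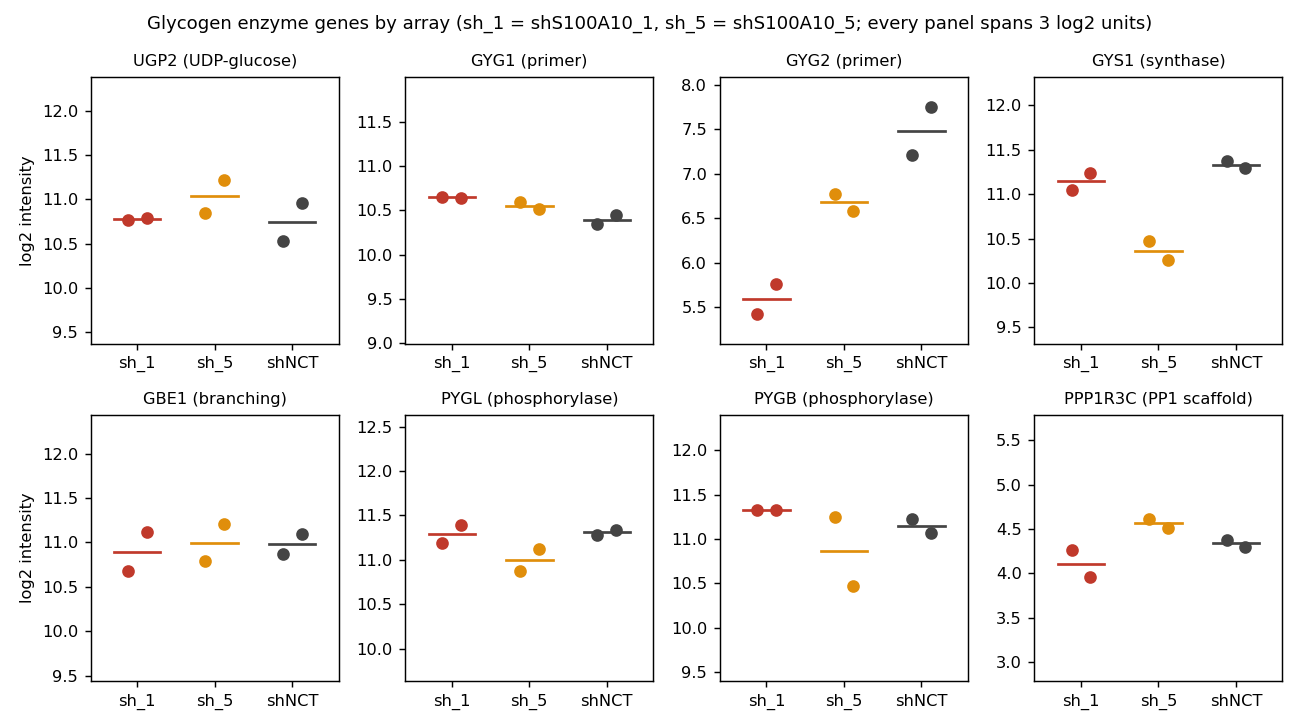
Log2 intensity of the 8 measured glycogen genes on each array (points) with the group mean (line), for shS100A10_1, shS100A10_5 and shNCT, 2 arrays each. GYG2 was lowest with shS100A10_1 (5.59), the fall that chose the list, and GYS1 with shS100A10_5 (10.37). The other genes varied within a narrower band. Levels of different genes are on different probe sets and are not comparable.

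GBE1 encodes the branching enzyme, which moves stretches of chain to make new branch points. Its intensity was 1633 and 2213 with shS100A10_1 and 1770.2 and 2363 with shS100A10_5, against 1870.4 and 2178 with shNCT. All 3 groups overlapped. The difference was 0.02 on the log2 scale for shS100A10_5 (95% interval -0.46 to 0.50; limma, adjusted p = 0.974) and -0.09 (SE 0.22) for shS100A10_1.

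The phosphorylases PYGL and PYGB, the liver and brain forms, release glucose 1-phosphate from glycogen. PYGL intensity was 2336 and 2689.8 with shS100A10_1 and 1882 and 2226 with shS100A10_5, against 2494 and 2592 with shNCT. The shS100A10_5 arrays lay below both other groups, by a difference from shNCT of -0.31 (95% interval -0.71 to 0.08; limma, adjusted p = 0.350), and the shS100A10_1 arrays overlapped the controls.

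PYGB intensity was 2578 and 2576 with shS100A10_1 and 2435 and 1421 with shS100A10_5, against 2397 and 2146 with shNCT. The low value was that of shS100A10_5 replicate 2 alone, 0.78 below replicate 1 on the log2 scale, and 3.11% of probe sets had a larger gap between those arrays. The difference from shNCT was -0.29 (95% interval -0.82 to 0.25; limma, adjusted p = 0.543). It was 0.10 without shS100A10_5 replicate 2, so its sign rested on that array.

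PPP1R3C encodes a scaffold, also called PTG, that brings protein phosphatase 1 to glycogen, where it activates the synthase. Its intensity was 19.1 and 15.6 with shS100A10_1 and 24.5 and 22.8 with shS100A10_5, against 20.8 and 19.7 with shNCT. It was the 1 member whose mean lay below the lower quartile of probe sets (4.98 log2), and the table has no detection calls. Its shS100A10_1 arrays lay below the controls and its shS100A10_5 arrays above them. The difference from shNCT with shS100A10_5 was 0.22 (95% interval -0.17 to 0.62; limma, adjusted p = 0.520). The difference between the hairpins was 0.45 (95% interval 0.06 to 0.85), with an unadjusted p = 0.0291 by limma that did not survive adjustment (adjusted p = 0.197).

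**Figure D2:**
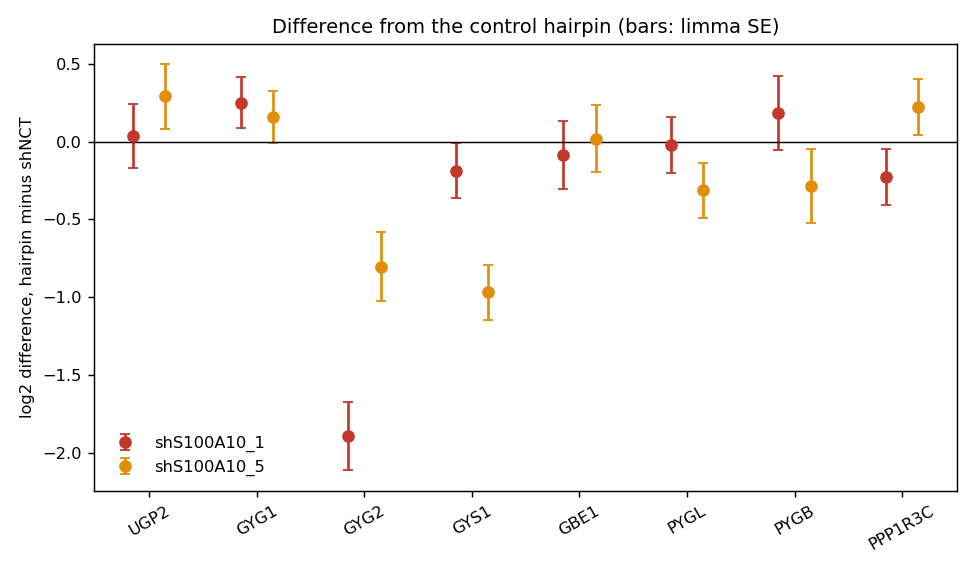
Log2 difference of each measured glycogen gene from shNCT, for shS100A10_1 and shS100A10_5 (points), with the limma standard error (bars). GYG2 stood at -1.89 and -0.80 and GYS1 at -0.19 and -0.97; the other 6 genes lay between -0.31 and 0.29.

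In counts, 1 of the 8 members passed with shS100A10_5 against shNCT (limma, adjusted p under 0.05), against 3.18% of all probe sets. That was GYS1, and 1.75% of all probe sets passed as lower. The arrays of shS100A10_5 and shNCT did not overlap for 5 of the 8, against 50.5% of all probe sets. The median difference was -0.13 over the 8, which include GYG2, 0.019 over the 7 other members and 0.025 over all probe sets. That of the 8 moved to -0.036 without shS100A10_5 replicate 1 and -0.043 without replicate 2. It was -0.29 with dim probe sets removed, which leaves out PPP1R3C. Between the hairpins, 1 of the 7 members other than GYG2 passed, again GYS1, against 2.91% of all probe sets. With shS100A10_1 against shNCT, where 0.189% of all probe sets passed, members called are not counted because that comparison chose the list. The arrays of those groups did not overlap for 5 of the 8 members, beside 42.4% of all probe sets, and nothing is read from that count.

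The wider glycogen machinery was read from a list of 27 regulators and accessory enzymes, of which 25 were measured; it includes the kinases and phosphatases that switch the synthase and phosphorylase on and off. With shS100A10_5 against shNCT, 1 of the 25 rose and none fell (limma, adjusted p under 0.05), against 1.43% of all probe sets that rose and 3.18% that passed either way. At an unadjusted p under 0.05 there were 6 of 25, against 21.0% of all probe sets. The median difference was -0.08, which was -0.0095 without shNCT replicate 1 and 0.023 without shNCT replicate 2. GABARAPL1, a member of the autophagy-related ATG8 family, to which the glycogen-binding protein STBD1 docks, was the gene that rose. Its intensity was 1495 and 1225 with shS100A10_1 and 2412 and 2383 with shS100A10_5, against 1501 and 1309 with shNCT.

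GABARAPL1 was thus higher on both shS100A10_5 arrays than on the other 4. It rose by 0.77 relative to shNCT (SE 0.18; limma, adjusted p = 0.0492) and was 0.83 higher than with shS100A10_1 (SE 0.18; limma, adjusted p = 0.0421). Signal shared with its close copy GABARAPL3 could not be separated. Both calls lay near the threshold and were lost without any 1 of the 6 arrays, with adjusted p of 0.0550 to 0.290 against shNCT and 0.0685 to 0.208 between the hairpins. The next in size were PHKG2 (-0.72, adjusted p = 0.0967) and PHKA2 (-0.69, 0.164), subunits of phosphorylase kinase, and PPP1CB (-0.70, 0.0718), a catalytic subunit of protein phosphatase 1, none of which passed limma's test.

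Genes that supply or use hexose phosphates and UDP-glucose formed another list of 22, of which 18 were measured. That list too was drawn up with earlier results of these data known. With shS100A10_5, 1 of the 18 fell and none rose relative to shNCT (limma, adjusted p under 0.05), against 1.75% of all probe sets that fell. At an unadjusted p under 0.05 there were 7 of 18, against 21.0% of all probe sets, and the median was -0.15, or -0.23 without shS100A10_5 replicate 1. SLC37A4, the transporter that carries glucose 6-phosphate into the endoplasmic reticulum and is mutated in glycogen storage disease type Ib, was the gene that fell. Its intensity was 2188 and 2014 with shS100A10_1 and 1264 and 923 with shS100A10_5, against 2203 and 2020.2 with shNCT.

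The shS100A10_1 and shNCT arrays of SLC37A4 overlapped, and both shS100A10_5 arrays lay below them. It fell by 0.97 relative to shNCT (SE 0.20; limma, adjusted p = 0.0338) and differed between the hairpins by -0.96 (SE 0.20; limma, adjusted p = 0.0332). The fall relative to shNCT was lost without shNCT replicate 1 (adjusted p = 0.157), shNCT replicate 2 (0.167) or shS100A10_5 replicate 2 (0.176), and the difference between the hairpins was lost without each array except shS100A10_5 replicate 1. GALT of galactose use (-0.79, adjusted p = 0.0505), PGM1, which interconverts glucose 1-phosphate and glucose 6-phosphate (-0.74, 0.0683), and the galactokinase gene GALK1 (-0.69, 0.124) came next and did not pass limma's test.

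**Figure D3:**
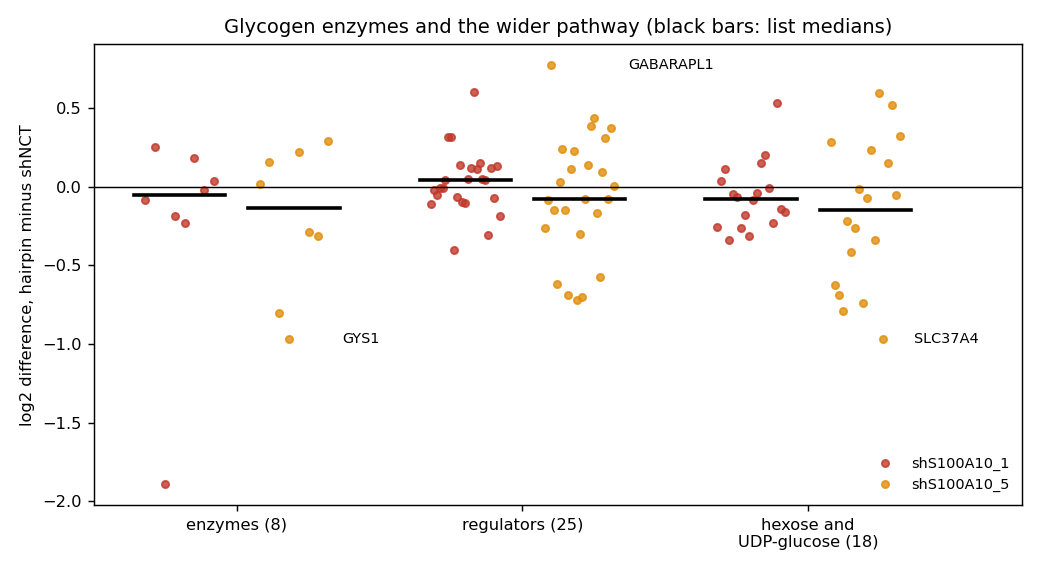
Log2 difference from shNCT of the 8 glycogen enzymes, the 25 measured regulators and the 18 measured hexose and UDP-glucose genes, for shS100A10_1 and shS100A10_5; black bars are list medians. The named genes passed limma's threshold with shS100A10_5 against shNCT, and the list medians lay between -0.15 and 0.04.

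Probe sets with a gene symbol and a log2 range of at least 1, 2095 in all, were ranked by likeness to GYG2 over the 6 arrays. Uncharacterized loci, noncoding RNAs and open reading frame symbols were then passed over, and the highest genes left were named. By Pearson's r they were BIRC2, an inhibitor of apoptosis with ubiquitin ligase activity (0.993), CISH, an inhibitor of cytokine signalling (0.986), S100A10 itself (0.961), the osteoblast transcription factor gene RUNX2 (0.955) and MICAL2, which oxidises actin (0.944). These values describe 3 groups of 2 arrays, and a gene picked for a fall with shS100A10_1 fixes part of the likeness. BIRC2 intensity was 2423 and 2619 with shS100A10_1 and 3724 and 3344 with shS100A10_5, against 3899 and 4949 with shNCT. For S100A10 the log2 differences from shNCT were -5.70 with shS100A10_1 and -3.004 with shS100A10_5. Those of GYG2 were -1.89, the value that chose the list, and -0.80. A link between GYG2 and the depth of the knockdown was not tested. The correlation with GYG2 over the same arrays was 0.11 for GYS1 and -0.83 for GYG1. The log2 range of GYG1 was only 0.30, below the 1 asked of the genes ranked above.

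**Figure D4:**
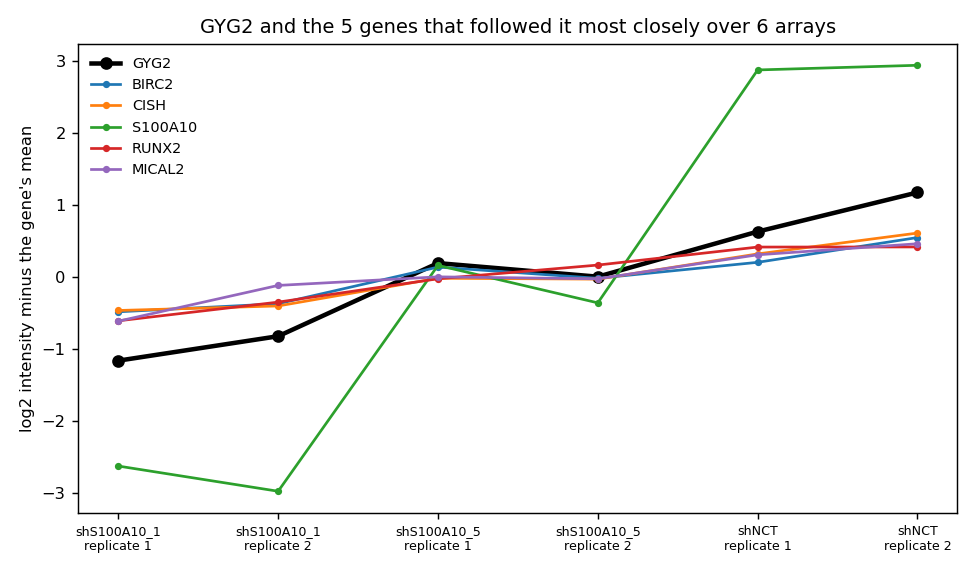
Log2 intensity of GYG2 and of the 5 genes named for the highest Pearson's r to it, each minus its own mean, on the 6 arrays. Uncharacterized loci, noncoding RNAs and open reading frame symbols were passed over. In all 6 genes the shS100A10_1 arrays lay lowest and the shNCT arrays highest, which follows in part from choosing the 5 by likeness to GYG2. CISH was dim, with intensities of 26.9 and 28.1 with shS100A10_1.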

How the data were processed

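Biotin-labelled cDNA from total RNA was hybridized to cartridge arrays, per the labels' protocols. The authors deposited a linear, already normalized intensity for each probe set on each array, made with Transcriptome Analysis Console per the submitters' processing notes. How probes were summarized and normalized, and the version used, is not given in the sources used here. All deposited intensities, once on the log2 scale, ended at 5 decimals. The table has no scan dates or detection calls, so no batch was tested.

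The platform annotation gave 15674 of 16965 probe sets 1 gene symbol, 0 several and 1291 none. Log2 intensities were fitted without further normalization in limma 3.58.1 (R 4.3.3; lmFit and eBayes) with a mean per group over all 6 arrays (3 residual and 7.16 prior degrees of freedom), and calls were made at 0.05 after Benjamini-Hochberg adjustment across the whole table. The fit was tested on data simulated with independent normal noise, of equal size on every array. That setting cannot show how the calls fare when an array stands apart. The 2 arrays of a group limit the precision.

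The members and lists were chosen with earlier results of these data known. All members are named, and from each of the 2 wider lists the genes past the threshold in either tested comparison plus the 3 with the largest difference for shS100A10_5 against shNCT. For likeness to GYG2 the 5 highest correlations were taken after symbols of uncharacterized loci, noncoding RNAs and open reading frames were passed over. Alternatives were quantile normalization, median centring, removal of dim probe sets, an intensity trend, robust hyperparameters, array weights, a block for replicate number, only the groups compared, 1 row per gene, each array left out and, added after seeing the data, removal of a trend on gene span.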

Additional observations from a re-analysis of the deposited data

Results flagged for a closer look

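In 3 of the 50 genes tested over the members and both lists, against 2.91% of all probe sets, the effects of the hairpins, both set against shNCT, differed from each other by limma's test of the difference between the hairpins. GYS1 differed by -0.78 on the log2 scale, lower with shS100A10_5 (SE 0.18, adjusted p = 0.0465), and SLC37A4 by -0.96 (SE 0.20, adjusted p = 0.0332). GABARAPL1 was higher with shS100A10_5 by 0.83 (SE 0.18, adjusted p = 0.0421). For each of the 3, both shS100A10_5 arrays lay outside the range of the shS100A10_1 and shNCT arrays. The 3 were picked by the test on these same arrays, so this adds no support. Against shNCT alone, the shS100A10_5 arrays did not overlap for 50.5% of all probe sets.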

How the results depend on the processing

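List medians were judged against the SD between replicate arrays of the list's median level (0.078 log2 for the members, 0.020 for the regulators and 0.0089 for the hexose genes). With shS100A10_5 against shNCT the members' median (-0.13) was -0.29 with dim probe sets removed and -0.22 with the span trend removed. It was -0.15 to -0.036 with an array left out. Over the 7 members other than GYG2 it was 0.019 in the main fit. The regulators' median (-0.078) was -0.12 to 0.023 with an array left out. That of the hexose genes (-0.15) was -0.16 with quantile normalization, -0.13 with centring, -0.22 with dim probe sets removed, -0.21 with the span trend removed and -0.23 to -0.11 with an array left out. Between the hairpins the members' median (0.0061), which includes GYG2, was -0.093 with dim probe sets removed and -0.10 to 0.092 with an array left out. Over the 7 members other than GYG2 it was -0.093 in the main fit, so the members' median has no settled sign. That of the regulators (-0.072) was -0.11 with quantile normalization, -0.14 with dim probe sets removed and -0.11 to -0.055 with an array left out. That of the hexose genes (-0.0081) was -0.049 with the span trend removed and -0.088 to 0.010 with an array left out. With shS100A10_1 against shNCT, left-out arrays gave medians of -0.16 to 0.063 for the members (-0.054), -0.022 to 0.11 for the regulators (0.042) and -0.21 to -0.056 for the hexose genes (-0.076). The members' median there includes the GYG2 value that chose the list, and was -0.021 over the 7 other members. The regulators' median there was 0.0079 with quantile normalization and -0.0083 with dim probe sets removed, and that of the hexose genes was -0.067 with centring. The cause of moved medians and counts was not tested beyond the smaller number of probe sets or arrays that some settings use. For all probe sets, 32 passed with shS100A10_1 against shNCT, 539 with shS100A10_5 against shNCT and 494 between the hairpins. These counts were 60, 952 and 791 with dim probe sets removed, 98, 1454 and 1144 with an intensity trend, and 89, 242 and 287 with array weights. With only the groups compared they were 16 for shS100A10_1 and 291 between the hairpins. With an array left out they ran from 8 to 16, 3 to 994 and 7 to 656, the lowest of the last 2 without shS100A10_5 replicate 2. Members called with shS100A10_1 against shNCT were not counted, since that comparison chose the list. With shS100A10_5 against shNCT 2 members passed with dim probe sets removed or a trend, GYG2 beside GYS1. GYG2 was chosen by a fall from these same control arrays, so its passes add no support. Between the hairpins GYS1 was lost, leaving 0, with median centring, array weights, only the groups compared or any array left out. Of the regulators, 1 passed in each tested comparison. Against shNCT this was 0 with quantile normalization, centring, robust hyperparameters, array weights or only the groups compared, 0 to 1 with an array left out (GABARAPL1 was lost each time), 2 with dim probe sets removed or the span trend removed, and 3 with an intensity trend. Between the hairpins it was 0 with quantile normalization, array weights, only the groups compared or any array left out, and 2 with dim probe sets removed, an intensity trend or the span trend removed. Of the hexose genes, also 1 in each, the count against shNCT was 3 with dim probe sets removed, 5 with an intensity trend, 2 with 1 row per gene and 0 to 2 with an array left out. Between the hairpins it was 2 with dim probe sets removed, 4 with an intensity trend, 0 with only the groups compared and 0 to 1 with an array left out. Signs turned for members near 0 that did not pass. GBE1 with shS100A10_5 against shNCT was -0.085 with the span trend removed, and with an array left out it ran from -0.19 (without shS100A10_5 replicate 2) to 0.23, with -0.09 without shNCT replicate 1. Between the hairpins GBE1 was -0.0046 with the span trend removed, and with an array left out it ran from -0.11 (without shS100A10_1 replicate 1) to 0.33, with -0.10 without shS100A10_5 replicate 2. PYGB with shS100A10_5 against shNCT ran from -0.67 to 0.10 with an array left out, positive without shS100A10_5 replicate 2. PPP1R3C gave no value with dim probe sets removed.

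Deviations of arrays with the same replicate number correlated at -0.02, -0.03 and 0.19 between the groups, so the numbers were not taken to pair the arrays. With the replicate block, the members called between the hairpins were 0 (GYS1, adjusted p = 0.0504) and the hexose genes called with shS100A10_5 against shNCT were 2, with GALT added (adjusted p = 0.0446); the other counts stayed within 1.5 times.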
